A study of Homo sapiens with 16 samples.

Results

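The 36 genes described here encode proteins of homologous recombination, of the Fanconi anaemia pathway, of mismatch repair and of the ATR checkpoint. They were chosen by name, as the rows of the deposited gene count table whose symbol is on a list of 36, out of 63187 genes in the table. The list was chosen with earlier results of these data known. All 36 passed the filter on low counts, which kept 19530 genes. RNA was sequenced from 16 samples of the MYCN-amplified neuroblastoma line SK-N-BE(2), which is of human origin. There were 4 libraries each of wild-type cells (WT) and of cells that had received 1 of 3 versions of HIF-2α by transfection. HIF-2α, the product of EPAS1, is a transcription factor regulated by oxygen. FL denotes its full length. The study design writes the other 2 versions as ΔN-CTAD and Δc-IDR, while the sample labels give them as NCTAD and cIDR, without the Δ, and these label names are used here. The deposited tables and the library names in the labels call the line BE2c, the WT libraries CTRL, the FL libraries WT and the NCTAD libraries NTAD. Groups here follow the sample titles. All groups share the same growth conditions, 21% oxygen, 5% CO2 and medium with 10% fetal bovine serum. Each group has replicates 1 to 4, and the labels give the replicate number as a batch, so that each batch holds 1 library of every group. The vector, the time after transfection and any empty-vector control are not stated in the labels, so transfection as such and HIF-2α cannot be told apart in a comparison with WT. All results come from 1 cell line, and nothing in the labels says that the libraries of a group came from separate cultures, so the p-values measure the spread between these libraries, which may be technical.

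Homologous recombination repairs broken DNA and collapsed replication forks by copying the sister chromatid. Nucleases first trim the break to single-stranded DNA, BRCA1 and BRCA2 complexes then load a recombinase on it, and further helpers assist the strand exchange. The Fanconi pathway removes links between DNA strands: a core complex attaches ubiquitin to the FANCD2 and FANCI pair, which directs the repair. Mismatch repair corrects copying errors behind the fork, and the ATR kinase with its partners holds the cell cycle while forks are stalled. Much of this machinery is known to be made when cells enter S phase, under control of E2F factors. Reduced expression of recombination genes under severe low oxygen has been described in cancer cell lines, which is general background and not a result of these libraries.

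Library totals ran from 38.6 to 56.1 M (mega) estimated counts, and member genes held from 374 counts (FANCB) to 7931 counts (FANCI) in a library. EPAS1 was at 13.0, 28.1, 17.3 and 14.3 CPM (counts per 1 M counts, with library sizes scaled by the TMM method) in WT 1 to 4 and between 1320 and 5852 CPM in the 12 transfected libraries, so the libraries titled WT were low in EPAS1 and those titled FL, which the tables call WT, were high like the other transfected ones. Reads of endogenous and transfected EPAS1 are counted together. Of 14 adrenergic neuroblastoma markers all 14 passed the filter, with sums of 10273 to 12381 CPM over libraries, and TH, the enzyme of the first step of catecholamine synthesis, was low, at 0.856 to 10.2 CPM. Of 15 mesenchymal and Schwann-type markers 11 passed, with sums of 140 to 163 CPM, and PRRX1, FOSL1, COL1A2 and SOX10 did not pass. In bulk RNA of this kind, fewer cells of a type and less RNA per cell cannot be told apart.

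Among the 36 genes, levels per transcript length differed by more than 10-fold. On the TPM scale (transcripts per 1 M transcripts, which allows for length), RAD51C had the highest mean, at 67.8 ± 5.08 TPM (SD, n = 16 libraries), followed by the checkpoint kinase CHEK1 at 64.9 ± 6.65 TPM and by FANCI at 58.7 ± 5.45 TPM. RAD51C and CHEK1 differed by less than either SD, and both lay above FANCI by more than the SD of FANCI. TOPBP1, an activator of ATR, stood at 43.1 ± 4.34 TPM, and the nuclease EXO1 at 41.1 ± 5.17 TPM. FANCB, a scaffold of the Fanconi core complex, was the lowest at 4.30 ± 1.10 TPM. PMS2 and FANCD2 have near-identical pseudogene copies, and ATRIP and RAD51D lie beside readthrough transcripts, so salmon may have split their reads among several features and their values are less certain.

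**Figure D1:**
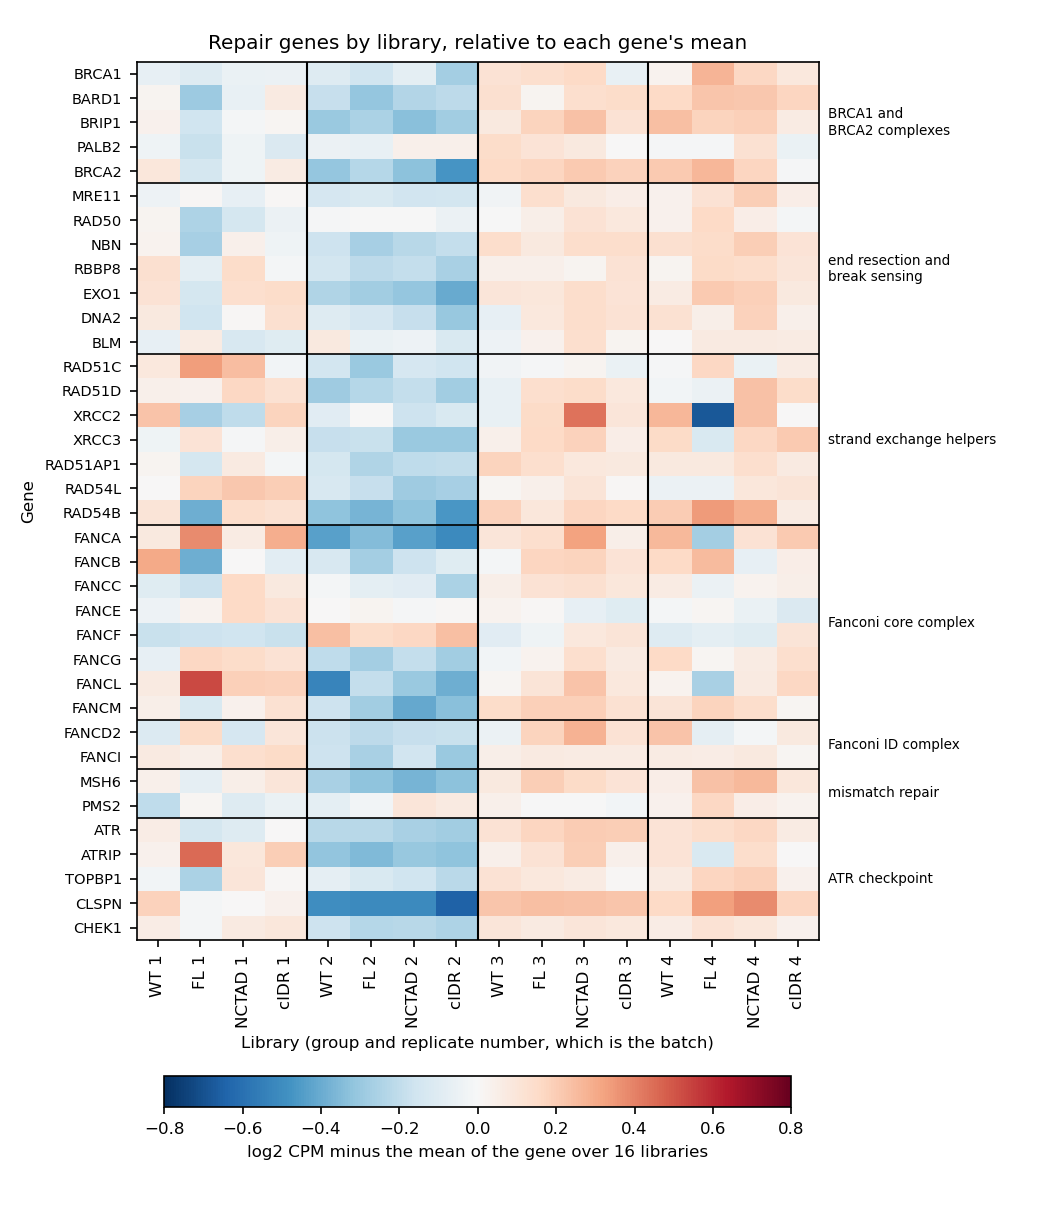
Log2 CPM of each of the 36 genes (rows, grouped by role) in each of the 16 libraries (columns, grouped by batch), minus the gene's mean over the libraries. The columns of batch 2 are mostly below the mean, in 33 of 36 genes for the batch mean.

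None of the 36 genes was called in cells transfected with a form of HIF-2α compared with WT, when libraries were compared within batches. In FL against WT, 0 of 36 members passed edgeR's quasi-likelihood test with an adjusted p (Benjamini-Hochberg) under 0.05, the threshold for a call, against 0.102% of all genes tested, and 0 of 36 had an unadjusted p under 0.05, against 5.11% of all genes. In NCTAD against WT, 0 of 36 were called, against 0.456% of all genes, and 1 had an unadjusted p under 0.05, against 5.96%. In cIDR against WT, 0 of 36 were called, against 0.486% of all genes, and 0 had an unadjusted p under 0.05, against 5.45%. With the 3 constructs pooled against WT, 0 of 36 were called, against 0.497% of all genes, and 1, RAD51D, had an unadjusted p under 0.05, against 6.72%. Median log2 differences over the 36 genes were −0.018 for FL, 0.022 for NCTAD and −0.018 for cIDR, beside 0.011, 0.016 and 0.0079 over all genes tested. These 3 comparisons share the WT libraries. DESeq2 and limma on log2(TPM + 1) also called 0 of 36 in each of them. The shares over all genes depended on single libraries. They stand for 20 genes called in FL, 89 in NCTAD, 95 in cIDR and 97 with the constructs pooled. Without WT 1 these counts were 10, 43, 49 and 46, and without FL 1 they were 23, 124, 123 and 127.

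The error left room only for small changes in most members. The standard error of a log2 difference from WT ranged from 0.04 to 0.16, with a median of 0.06. The 95% interval lay within 0.3 log2 units of 0 for 32 of 36 genes in FL, 33 in NCTAD and 33 in cIDR. It lay within 0.5 units for 35, 36 and 36 genes, and the exception in FL was XRCC2. A p that misses the threshold does not show that levels are the same, and changes smaller than these intervals cannot be seen with 4 libraries a group.

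XRCC2, a relative of the recombinase that helps to load it, had the widest spread of the set once group and batch were fitted. Its biological coefficient of variation, as estimated by edgeR, was 15.5%. The level of XRCC2 was 45.7, 36.6, 37.5 and 46.9 CPM in WT 1 to 4 and 32.4, 38.9, 43.3 and 24.4 CPM in FL 1 to 4. FL was below WT in batches 1 and 4 and above it in batches 2 and 3. The log2 difference of FL from WT was −0.27 ± 0.16 (SE, adjusted p = 0.92), and it was −0.11 without FL replicate 4, the library with the lowest XRCC2 level of all 16. In the other constructs XRCC2 stood at 34.0, 34.8, 52.7 and 45.8 CPM (NCTAD 1 to 4) and at 44.1, 35.9, 41.8 and 39.1 CPM (cIDR 1 to 4), which overlapped WT.

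RAD51D, another member of that recombinase family, came closest to a difference from WT. It was at 22.0, 17.5, 20.5 and 21.0 CPM in WT 1 to 4, at 24.0, 18.8, 23.7 and 25.2 CPM in NCTAD 1 to 4 and at 23.3, 17.6, 22.6 and 23.7 CPM in cIDR 1 to 4. Within batches it was higher than WT in 4 of 4 libraries of either construct, while the ranges of the groups overlapped. NCTAD differed from WT by 0.17 ± 0.06 on the log2 scale (adjusted p = 0.51), and cIDR by 0.10 ± 0.06 (adjusted p = 0.99). In FL, with 21.9, 18.2, 23.5 and 20.7 CPM, it was above WT in 2 of 4 batches.

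The other members with the smallest unadjusted p against WT differed by 0.06 to 0.15 log2 units in size, less than RAD51D in NCTAD. In FL these were NBN, the adaptor subunit of the break-sensing MRE11 complex, at −0.11 ± 0.05, and BARD1, the partner of BRCA1 in its ubiquitin ligase, at −0.12 ± 0.06. NBN stood at 55.0, 48.2, 59.6 and 59.0 CPM in WT 1 to 4 and at 44.8, 45.0, 57.0 and 59.8 CPM in FL 1 to 4, and BARD1 at 21.5, 18.6, 23.1 and 23.6 CPM in WT and 17.3, 17.1, 21.4 and 24.6 CPM in FL. Both genes were lower than WT in 3 of 4 batches, most in batch 1. In NCTAD they were FANCL, the ubiquitin ligase of the Fanconi core, at 0.15 ± 0.10 and MRE11, the nuclease of the break-sensing complex, at 0.06 ± 0.05. FANCL stood at 14.8, 9.81, 14.3 and 14.4 CPM in WT and 16.2, 11.5, 16.6 and 14.8 CPM in NCTAD, higher in 4 of 4 batches. MRE11 stood at 55.5, 52.0, 56.0 and 58.4 CPM in WT and 54.5, 51.3, 60.4 and 65.5 CPM in NCTAD, higher in 2 of 4 batches. In cIDR they were FANCF, an adaptor within the Fanconi core, at 0.10 ± 0.06 and BRCA2, which loads the recombinase, at −0.09 ± 0.07. FANCF stood at 15.7, 20.9, 16.6 and 16.4 CPM in WT and 15.6, 20.9, 19.0 and 19.0 CPM in cIDR, and BRCA2 at 38.9, 29.5, 40.7 and 42.1 CPM in WT and 38.1, 26.2, 41.5 and 36.2 CPM in cIDR. FANCF was higher in 3 of 4 batches and BRCA2 in 1 of 4. In each of these genes the batches differed more than the groups.

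**Figure D2:**
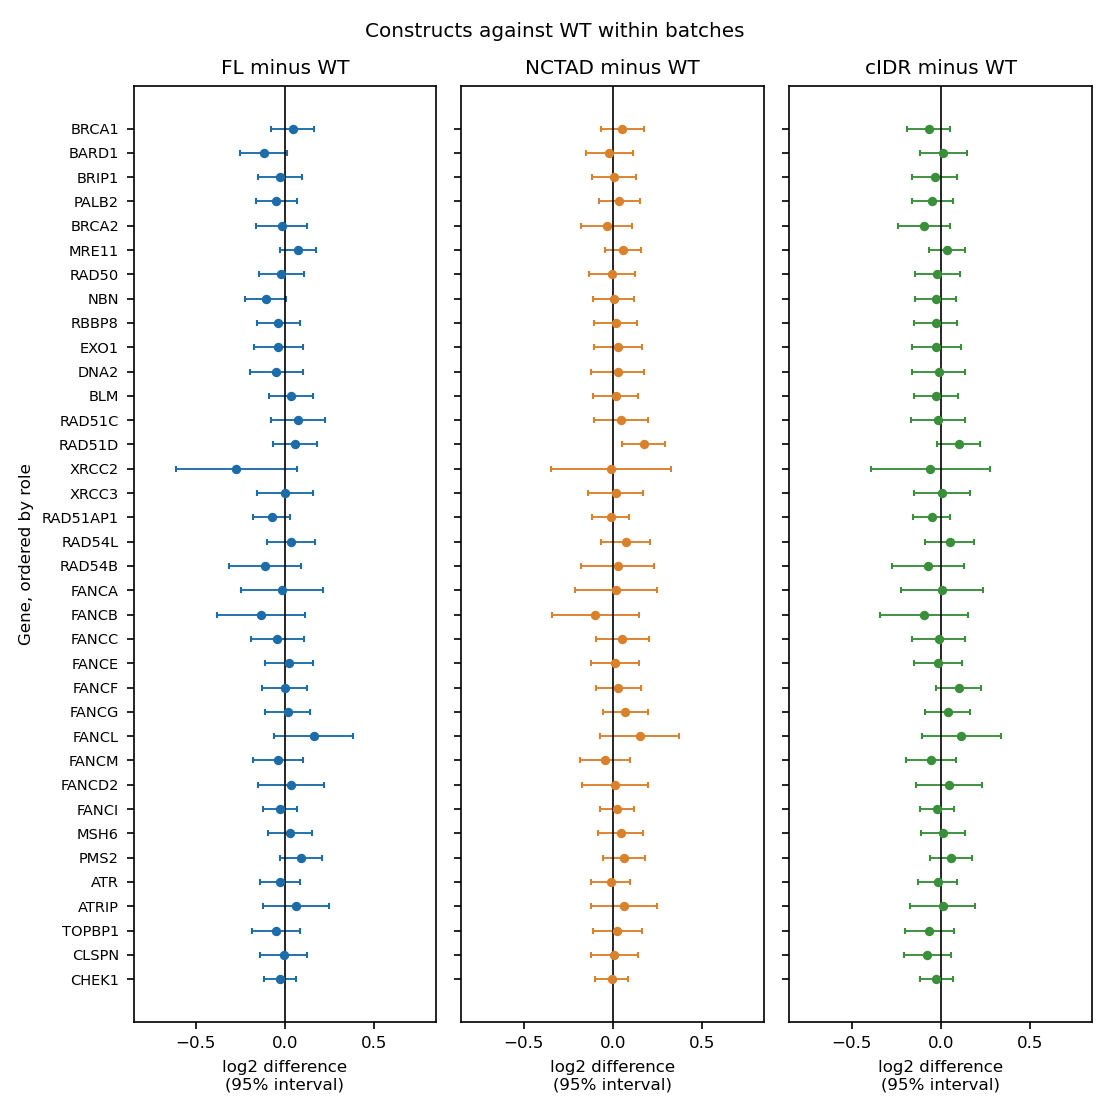
Log2 difference of each of the 36 genes from WT (x axis, point) with its 95% interval (bar), for FL, NCTAD and cIDR in separate panels, from the model with group and batch. All points lie between −0.27 (XRCC2 in FL) and 0.17 (RAD51D in NCTAD), and none of the genes was called.

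The constructs were not distinguished from each other by these genes. In NCTAD against FL, 0 of 36 members were called, against 0% of all genes, and 0 had an unadjusted p under 0.05, against 3.69%. In cIDR against FL, 0 of 36 were called, against 0.0307%, and 0 had an unadjusted p under 0.05, against 3.68%. In cIDR against NCTAD, 0 of 36 were called, against 0.00512%, and 1 had an unadjusted p under 0.05, against 2.15% of all genes. That gene was BRCA1, the scaffold of several repair complexes, with 59.7, 58.6, 69.1 and 69.5 CPM in NCTAD 1 to 4 and 59.9, 51.2, 59.4 and 65.7 CPM in cIDR 1 to 4. In 3 of 4 batches cIDR was the lower, and the difference was −0.12 ± 0.06 on the log2 scale (adjusted p = 1.0), while the ranges overlapped. Against WT, BRCA1 differed by 0.05 in NCTAD and by −0.07 in cIDR. The 95% intervals lay within 0.5 log2 units of 0 for 35 of 36 genes in NCTAD against FL, 35 in cIDR against FL and 36 in cIDR against NCTAD.

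The hypoxia genes gave a reference for the size of response in the same libraries. Of 36 genes on a list of known HIF targets, 1 was higher than WT in the FL group, 8 in the NCTAD group and 19 in the cIDR group (adjusted p under 0.05), and none was called lower. Several other lists held no gene called in either direction in the 3 comparisons with WT. They were S phase and E2F genes (35 tested), G2 and mitosis genes (25), end joining (15), excision repair (28), p53 targets (16) and other recombination and Fanconi genes (66). Markers of cell state were called with the constructs: of 14 adrenergic markers, 3 were higher in NCTAD (TH by 1.27 ± 0.17, DBH by 0.61 ± 0.07 and DDC by 0.32 ± 0.05 on the log2 scale) and 2 in cIDR (TH by 1.06 ± 0.17 and DBH by 0.51 ± 0.07), all 3 being genes of catecholamine synthesis. None of the 14 was called in FL, where 6 had an unadjusted p under 0.05 (5.11% of all genes) and the largest log2 difference was 0.83. No adrenergic marker was called in NCTAD against FL or in cIDR against FL, so a difference between constructs is not shown. None of the 11 mesenchymal and Schwann-type markers tested was called against WT in any of the 3 constructs.

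The batches separated the repair genes where the groups did not. In batch 2, 28 of the 36 genes were lower and 1 was higher than in batches 1, 3 and 4 (edgeR, adjusted p under 0.05), with a median log2 difference of −0.28 over the 36 and 0.035 over all genes tested. Batch 2 differed widely: 53.9% of all genes were called, 26.1% lower and 27.7% higher, while 77.8% of members were lower. The members were chosen with earlier results of these data known, so these shares are a description and not an independent comparison. Of 66 other recombination and Fanconi genes, 48.5% were lower and 16.7% higher. In 20 members all 4 batch 2 libraries were below the other 12, against 14.6% of all genes, and in 1 member they were all above, against 14.4%. The summed level of the 36 genes was 1379 ± 31.7 CPM in batch 2 (SD, n = 4, 1338 to 1415 CPM) and 1659 ± 56.4 CPM in the other batches (SD, n = 12, 1530 to 1738 CPM), with no overlap. On the deposited TPM values, tested with limma on log2(TPM + 1), 17 members were lower and 2, FANCF and PMS2, were higher, beside 3017 lower and 5405 higher genes in all, and the median over members was −0.16. The 11 members called lower on counts but not called on that scale were BARD1, MRE11, NBN, DNA2, RAD51C, RAD51AP1, FANCC, FANCD2, FANCI, TOPBP1 and CHEK1. What set batch 2 apart is not stated in the labels, and the test uses the spread between libraries, not between batches, of which batch 2 is 1.

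**Figure D3:**
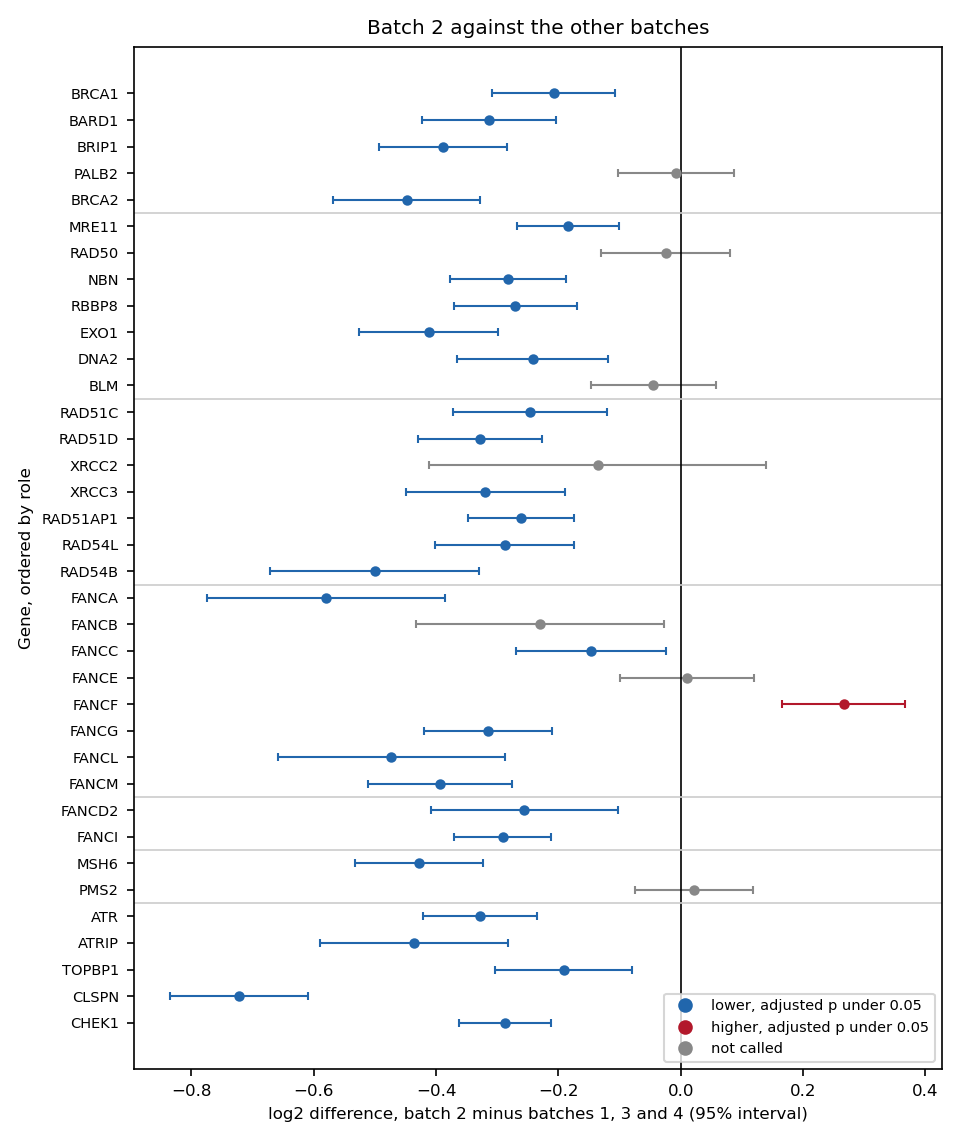
Log2 difference of batch 2 from batches 1, 3 and 4 (x axis, point) with its 95% interval (bar) for each of the 36 genes, ordered by role and coloured by whether the gene was called. The 28 genes called lower span −0.15 (FANCC) to −0.72 (CLSPN), and FANCF alone was called higher, at 0.27.

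All 5 genes of the ATR checkpoint were lower in batch 2, with a median log2 difference of −0.33. CLSPN (claspin), the adaptor through which ATR activates CHEK1, showed the largest difference of the 36. It was at 20.0, 19.8, 19.8 and 18.0 CPM in batch 2 (WT, FL, NCTAD and cIDR in this order, which is kept below) and at 27.9 to 36.6 CPM in the other 12 libraries, with a median of 32.5 CPM. The groups did not overlap, and the log2 difference was −0.72 ± 0.05 (adjusted p = 4.19e-08). CHEK1, the effector kinase, was at 82.7, 79.1, 79.3 and 78.1 CPM in batch 2 and at 91.8 to 100.1 CPM elsewhere, with a median of 97.8 CPM, a difference of −0.29 ± 0.04 (adjusted p = 7.80e-06). ATR, the kinase that senses single-stranded DNA at forks, was at 56.8, 56.9, 55.5 and 54.7 CPM, below the 60.2 to 76.3 CPM (median 71.6 CPM) of the others, and differed by −0.33 ± 0.04. Its partner ATRIP differed by −0.44 ± 0.07 and the activator TOPBP1 by −0.19 ± 0.05. Of these 5, TOPBP1 alone overlapped between batch 2 and the rest. On the log2(TPM + 1) scale CHEK1 (−0.16, limma adjusted p = 0.052) and TOPBP1 (−0.09) were not called, and TOPBP1 was not called against batch 1 alone (−0.10).

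Of the mismatch repair pair, MSH6 fell and PMS2 was not called. MSH6, which recognises mismatched bases, was at 61.1, 58.6, 56.6 and 58.3 CPM in batch 2 and at 69.5 to 87.8 CPM elsewhere, with a median of 78.0 CPM. No library of batch 2 reached the others, and the difference was −0.43 ± 0.05 (adjusted p = 3.65e-06). PMS2, whose complex nicks the strand to be corrected, was at 32.6 to 36.8 CPM in batch 2 and 29.9 to 38.7 CPM elsewhere, with a log2 difference of 0.02 ± 0.05. On the log2(TPM + 1) scale PMS2 was called higher, by 0.28 (limma adjusted p = 0.016).

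Promoter sequences are shown for 5 members, picked after their values were seen: CLSPN and MSH6 as the called genes with the smallest adjusted p, FANCF as the single rise, PALB2 as the gene nearest to no difference, and XRCC2 as a gene with an E2F site that was not called. Each runs 5′ to 3′ from 250 bases before to 50 bases after the RefSeq start (GRCh38.p14). Capitals mark E2F-type words (TTTCCCGC, TTTCGCGC, TTTGCCGC or TTTGGCGC) and hypoxia response element cores (ACGTG or GCGTG) on either strand. The windows are chr1:35769929-35770228 (minus strand) for CLSPN, chr2:47782895-47783194 (plus) for MSH6, chr11:22625774-22626073 (minus) for FANCF, chr16:23641261-23641560 (minus) for PALB2 and chr7:152676092-152676391 (minus) for XRCC2. Each spans its gene's first transcribed bases and the sequence upstream of them. MSH6 has 4 listed windows, of which the one with an E2F-type word is shown.
CLSPN: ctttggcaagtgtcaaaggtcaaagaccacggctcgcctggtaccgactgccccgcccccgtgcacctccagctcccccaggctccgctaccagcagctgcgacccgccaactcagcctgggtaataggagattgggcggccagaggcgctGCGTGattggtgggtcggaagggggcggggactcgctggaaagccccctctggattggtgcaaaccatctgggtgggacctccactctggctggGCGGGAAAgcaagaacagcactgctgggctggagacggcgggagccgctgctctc
MSH6: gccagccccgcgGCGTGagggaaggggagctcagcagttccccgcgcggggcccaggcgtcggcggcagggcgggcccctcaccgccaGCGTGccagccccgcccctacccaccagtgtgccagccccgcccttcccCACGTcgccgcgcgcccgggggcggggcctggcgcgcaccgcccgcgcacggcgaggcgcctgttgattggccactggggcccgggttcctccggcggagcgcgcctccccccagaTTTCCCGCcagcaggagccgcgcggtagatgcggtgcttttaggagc
FANCF: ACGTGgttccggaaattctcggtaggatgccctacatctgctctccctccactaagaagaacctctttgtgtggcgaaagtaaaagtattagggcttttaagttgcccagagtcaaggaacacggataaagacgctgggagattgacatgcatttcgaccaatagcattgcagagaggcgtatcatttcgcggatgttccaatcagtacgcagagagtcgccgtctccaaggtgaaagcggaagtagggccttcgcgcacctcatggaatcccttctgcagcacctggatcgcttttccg
PALB2: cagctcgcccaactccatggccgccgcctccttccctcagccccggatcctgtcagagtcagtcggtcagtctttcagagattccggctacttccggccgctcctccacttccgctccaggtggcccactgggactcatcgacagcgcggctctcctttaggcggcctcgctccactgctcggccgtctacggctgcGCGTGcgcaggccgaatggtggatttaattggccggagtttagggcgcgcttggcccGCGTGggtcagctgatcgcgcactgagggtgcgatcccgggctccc
XRCC2: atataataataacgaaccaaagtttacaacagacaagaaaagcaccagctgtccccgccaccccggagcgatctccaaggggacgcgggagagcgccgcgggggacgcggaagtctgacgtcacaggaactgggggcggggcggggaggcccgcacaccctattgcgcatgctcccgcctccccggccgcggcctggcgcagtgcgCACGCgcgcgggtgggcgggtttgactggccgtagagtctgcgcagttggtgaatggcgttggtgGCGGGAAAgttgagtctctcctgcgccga

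The E2F-type word began 5 bases before the start in CLSPN, at base 4 after it in MSH6 and at base 22 in XRCC2. The FANCF and PALB2 windows held none of these 4 words. RefSeq windows matched 32 of the 36 members. NBN, DNA2, RAD54B and FANCI had no entry in the promoter set used here, which covered 11847 of the 19530 tested genes. An E2F-type word occurred in 9 of the 32 (28.1%), against 6.45% of the 11847 tested genes with a window and 3.31% of all 35116 windows of this length. It was present in 7 of 24 members that were lower in batch 2 and in 2 of the other 8 members. Hypoxia response element cores, which are only 5 letters long, occurred in 27 of 32 members (84.4%), against 69.4% of tested genes and 48.4% of all windows. CCAAT occurred in 16 of 32 (50%), against 42.7% of tested genes and 34.6% of windows, and TTTGAA, the letters of the cell cycle homology region, in 2 of 32 (6.25%), against 13.6% and 15.2%. A match describes the letters of the window and shows no binding.

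Of the 5 genes of the BRCA1 and BRCA2 complexes 4 were lower in batch 2, with a median of −0.31. BRCA2 was at 29.5, 31.1, 29.0 and 26.2 CPM in batch 2 and at 33.1 to 43.8 CPM elsewhere (median 40.8 CPM), a difference of −0.45 ± 0.06. BRIP1, a helicase bound to BRCA1, was at 26.9, 27.8, 26.3 and 27.3 CPM, below the 29.7 to 39.1 CPM (median 35.4 CPM) of the other libraries, and differed by −0.39 ± 0.05. Neither gene overlapped between batch 2 and the rest. BARD1 (−0.31 ± 0.05) and BRCA1 (−0.21 ± 0.05) were called lower with overlap. PALB2, the bridge between BRCA1 and BRCA2, stayed at 23.2 to 24.9 CPM in batch 2 within the 21.4 to 26.7 CPM of the others, with a log2 difference of −0.0072 and a 95% interval of −0.10 to 0.09. On the log2(TPM + 1) scale BARD1 differed by 0.02 and was not called, and BRCA1 was not called against batch 1 alone (−0.09).

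**Figure D4:**
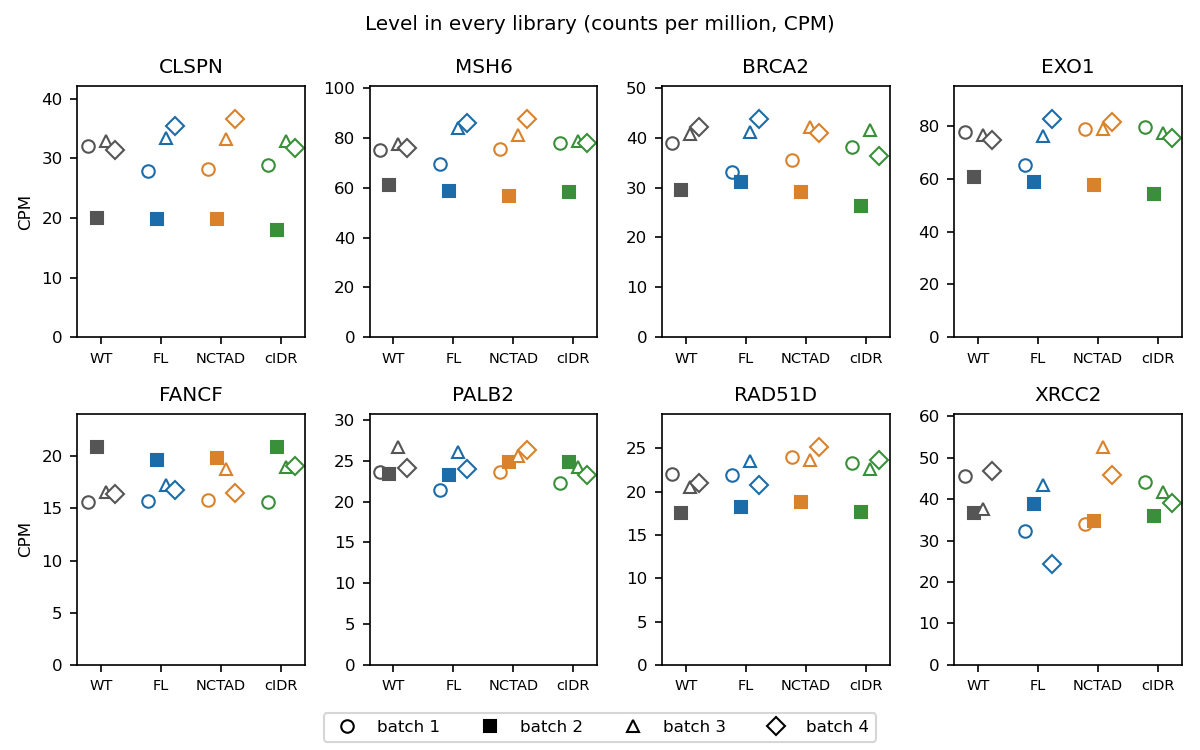
CPM of 8 of the genes (panels, y axis from 0) in every library, with groups on the x axis, symbols for batches and filled squares for batch 2. The squares lie lowest in every group for CLSPN, MSH6, BRCA2, EXO1 and RAD51D, highest for FANCF, and at no fixed rank for PALB2 and XRCC2.

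In end resection and break sensing 5 of 7 genes were lower, with a median of −0.24. EXO1, a nuclease of long-range resection that also serves mismatch repair, was at 60.7, 59.0, 57.7 and 54.2 CPM in batch 2 and 65.1 to 82.8 CPM elsewhere (median 77.5 CPM), a difference of −0.41 ± 0.05. Its levels did not overlap. DNA2, the other long-range nuclease, differed by −0.24 ± 0.06, and RBBP8 (CtIP), which starts resection, by −0.27 ± 0.05. In the MRE11 complex, NBN (−0.28 ± 0.04) and MRE11 (−0.18 ± 0.04) were lower, while RAD50, its ATPase, was not called, with 76.6 to 78.9 CPM against 66.8 to 88.6 CPM and a 95% interval of −0.13 to 0.08. BLM, a helicase that unwinds DNA for resection, was not called either (−0.04 ± 0.05). On the log2(TPM + 1) scale NBN (−0.14), DNA2 (−0.07) and MRE11 (0.08) were not called, and MRE11 was not called against batch 1 alone (−0.12).

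Among the 7 strand exchange helpers 6 were lower, with a median of −0.29. RAD51D was at 17.5, 18.2, 18.8 and 17.6 CPM in batch 2 and at 20.5 to 25.2 CPM elsewhere (median 23.0 CPM), without overlap, a difference of −0.33 ± 0.05. RAD51AP1, which stimulates strand exchange, was at 36.2, 33.8, 34.7 and 34.8 CPM, and its highest batch 2 library lay just below the lowest of the others, which ran from 36.2 to 45.1 CPM (median 42.1 CPM). It differed by −0.26 ± 0.04. The DNA motor proteins RAD54B (−0.50 ± 0.08) and RAD54L (−0.29 ± 0.05) and the recombinase relatives XRCC3 (−0.32 ± 0.06) and RAD51C (−0.25 ± 0.06) were lower as well. XRCC2 was not called (−0.14 ± 0.13). RAD51AP1 (−0.06) and RAD51C (−0.13) were not called on the log2(TPM + 1) scale, and RAD51C was not called against batch 3 alone (−0.17).

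The Fanconi core complex held the only rise. FANCF was at 20.9, 19.6, 19.9 and 20.9 CPM in batch 2, above the 15.6 to 19.0 CPM (median 16.6 CPM) of all other libraries, a difference of 0.27 ± 0.05 (adjusted p = 2.26e-04). Of its 7 partners here, 5 were lower. FANCM, the translocase that anchors the complex to DNA, was at 22.4, 20.7, 18.9 and 19.9 CPM in batch 2 and 23.1 to 28.7 CPM elsewhere (median 27.3 CPM), a difference of −0.39 ± 0.05. FANCG, an adaptor, was at 33.3, 31.9, 33.7 and 31.7 CPM against 36.7 to 43.1 CPM (median 41.0 CPM), a difference of −0.32 ± 0.05. FANCA differed by −0.58 ± 0.09, the second largest of the set, FANCL by −0.47 ± 0.09 and FANCC by −0.15 ± 0.06. FANCC lay just inside the threshold (adjusted p = 0.0429) and FANCB just outside it (−0.23 ± 0.09, adjusted p = 0.0528). Over 29 alternatives FANCC lost its call in 13, among them the fits without WT 4, FL 3, NCTAD 2, cIDR 2 or cIDR 4 (−0.15 to −0.096) and the TPM scales (0.041 and 0.045). FANCB was called lower in 7 of 29, among them DESeq2 (−0.24) and the fits without WT 3, FL 1 or NCTAD 4 (−0.26 in each). FANCE, at 13.4 to 13.7 CPM in batch 2 and within the range of the other libraries, differed by 0.010, with a 95% interval of −0.10 to 0.12. Both genes of the pair that the core modifies were lower on counts. FANCI was at 122, 115, 123 and 112 CPM against 139 to 153 CPM (median 144 CPM), a difference of −0.29 ± 0.04, and FANCD2 differed by −0.26 ± 0.07, also without overlap. On the log2(TPM + 1) scale FANCI (−0.11) and FANCD2 (−0.16) were not called, and FANCD2 was not called against batch 1 alone (−0.19).

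Each group has 1 batch 2 library, so the values within groups are a description with no test. The log2 CPM of the batch 2 library was below the mean of the other 3 libraries of its group for 33 of 36 genes in the WT group, 32 of FL, 34 of NCTAD and 32 of cIDR, with medians of −0.24, −0.27, −0.31 and −0.33. Over all genes tested, 47.1%, 47.7%, 47.7% and 47.1% were below it, and the genes of 1 library are not replicates. Whether the batch 2 difference was larger in transfected cells was fitted as an interaction, in which the WT side rests on 1 batch 2 library that is assumed to vary like the other libraries. The term was below 0, which means a more negative batch 2 difference with the constructs, for 27 of 36 members, with a median of −0.07 log2 units, beside 10276 of all 19530 genes and a median of −0.0095. In this fit 0 of 36 members were called, against 0.00512% of all genes, and 0 had an unadjusted p under 0.05, against 1.56%. The standard error of this term had a median of 0.12, and its 95% interval lay within 0.5 log2 units of 0 for 33 of 36 genes and within 0.3 for 10. XRCC2 had the largest standard error, 0.31. EPAS1 over all groups differed by −0.45 ± 0.26 in batch 2 and was not called (adjusted p = 0.17). That value pools endogenous and transfected EPAS1, and in WT alone the batch 2 library was the highest of the 4, at 28.1 CPM.

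The 3 remaining batches differed less. Among batches 1, 3 and 4, 3 of 36 members were called, against 10.8% of all genes, and 12 had an unadjusted p under 0.05, against 25.4%. The 3 were ATR, NBN and BARD1, all lower in batch 1 than in batches 3 and 4. ATR averaged 64.4 ± 4.11 CPM in batch 1 (SD, n = 4 libraries), 74.7 ± 2.11 CPM in batch 3 and 72.0 ± 2.16 CPM in batch 4. NBN averaged 52.0 ± 4.92, 58.9 ± 1.27 and 59.7 ± 1.61 CPM, and BARD1 20.3 ± 2.18, 22.8 ± 0.909 and 24.1 ± 0.504 CPM. Relative to each gene's mean over all libraries, 18 of 36 genes were below it in batch 1, 33 in batch 2, 2 in batch 3 and 3 in batch 4. That mean includes the batch 2 libraries, so their low levels by themselves place the other batches higher against it. The share over all genes was not computed. The count of 3 rested on single libraries: it was 0 or 1 without WT 2, FL 1, 2 or 3, any of NCTAD 1 to 4 or cIDR 2 or 3, and 5 without WT 4. The count over all genes, 2113, depended on single libraries too: it was 796 without NCTAD 1, 1225 without FL 3, 1289 without NCTAD 3 and 1375 without cIDR 3, and 0 without batch 1.

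Genes of related repair pathways were called in both directions in batch 2, where 26.1% of all genes were lower and 27.7% higher; the lists were not tested against the members. Of 66 other recombination and Fanconi genes, 32 were lower and 11 higher, with a median of −0.15. Among them TIMELESS, which protects replication forks, fell by 0.67 ± 0.04 on the log2 scale (adjusted p = 8.12e-09), RMI1, a partner of BLM, fell by 0.49 ± 0.05 (adjusted p = 6.05e-07), and ABRAXAS1, a scaffold of a BRCA1 complex, rose by 0.82 ± 0.06 (adjusted p = 3.14e-08). In end joining 8 of 15 genes were lower and 1 higher (median −0.14), and in base and nucleotide excision repair 14 of 28 were lower and 6 higher (median −0.11).

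Genes of S phase and the hypoxia genes stood farthest from the whole. Of 35 S phase and E2F genes, 29 were lower and 2 higher in batch 2 (median −0.36), and their summed level was 3332 to 3514 CPM there and 4610 to 5090 CPM in the other libraries. Of 25 G2 and mitosis genes, 14 were lower and 2 higher (median −0.16). Of 36 hypoxia genes, 34 were higher and 0 lower (median 1.22), with sums of 5354 to 7235 CPM against 2911 to 3980 CPM. Of 16 p53 targets, 6 were higher and 5 lower (median 0.12). The adrenergic markers summed to 10273 to 11100 CPM in batch 2 and 10648 to 12381 CPM elsewhere, and the mesenchymal and Schwann-type markers to 143 to 163 CPM and 140 to 159 CPM. These sums overlapped while single markers moved both ways: of 14 adrenergic markers, 7 were higher and 5 lower in batch 2, from −0.80 (GATA3) to 2.15 (TH). Of 11 mesenchymal and Schwann-type markers, 4 were higher and 3 lower, from −1.17 (SNAI2) to 2.40 (NOTCH3). The part of S phase, of oxygen or of cell state in the levels of the repair genes was not tested.

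Transcript length and base composition of the members differ from the average. Their longest annotated transcripts had a median length of 4660 nt and 41.7% GC, beside 2908 nt and 48.2% GC over the tested genes with a value (95.5% of them). Across genes, the batch 2 difference had a Spearman correlation of −0.159 with length over all genes and −0.186 over the 36, and of 0.102 and 0.088 with GC content, given as a description since genes are not independent.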

How the data were processed

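Poly(A)-selected, stranded RNA-seq libraries were made with 13 cycles of PCR and about 250 ng of RNA as input, per the labels' protocols. The submitters' processing notes name fastp, STAR, Salmon and featureCounts and the build GRCh38, while their versions and the annotation are not given in the sources used here. The authors deposited estimated counts for each gene, made by salmon per the table's name and scaled neither to depth nor to length. The TPM values deposited beside them are scaled by length and to 1 sum in each library. Of the estimated counts 15.5% were not whole, and all were rounded.

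Genes were filtered with filterByExpr by group (19530 kept) and tested with edgeR 4.0.16 in R 4.3.3, by the quasi-likelihood test with TMM normalization, in 1 model of group and batch over all 16 libraries. P-values were adjusted over all genes tested and called under 0.05. Across genes the common biological coefficient of variation amounted to 10.8%. The SE is the log2 difference divided by the square root of F, CPM use TMM-scaled sizes, and a prior count of 2 was added for log2 CPM. Script and test were checked on simulated data with known changes. Batch was in the model because groups were to be compared within batches and the labels give the replicate number as a batch. Deviations from group means, compared across genes, had a mean correlation of 0.308 for libraries sharing a number (range 0.0674 to 0.712) and of −0.0945 for those that did not. No libraries were copies: chi-square per degree of freedom was at least 7.24 within groups.

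The 36 members and all gene lists were chosen with earlier results of these data known. For the 3 members with the smallest unadjusted p in each construct against WT the text gives the libraries compared, and for the 12 members with the smallest p for batch 2 its 4 libraries, with the range and median of the other 12. The 3 other recombination genes named have the smallest p of their list. BRCA1 in cIDR against NCTAD and other members outside this rule were named as part of the set. Alternatives were DESeq2 1.42.0 with batch and group, median-of-ratios size factors, a minimum of 10 counts in every library, no filter on counts, limma 3.58.1 on log2(TPM + 1) and log2(TPM + 0.1), only the libraries compared, the replicate block left out (group as the only term, or batch as the only term for the batch comparisons), and each library or batch left out. Promoters are from RefSeq, and lengths from GENCODE 29, used for length and GC only. Figures were drawn with matplotlib.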

Additional observations from a re-analysis of the deposited data

Results flagged for a closer look

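Within each group of 4 libraries, the highest and lowest level of every member was compared with its nearest neighbour (Dixon's test of log2 CPM at its 95% critical value). Of 144 tests of a gene in a group, 19 flagged a library, and in all 19 it was the batch 2 library, lowest of its group. Chance flags about 1 in 20 groups, and the 36 genes of a library share its RNA, so the flags are not independent. Only the 36 members were put through this test, so no share over all genes stands beside the 19. Among all genes tested, the batch 2 libraries were all below the other 12 for 14.6% and all above them for 14.4%. The flags therefore do not set the members apart from other genes. In cIDR 2 there were 9 flags: EXO1 at 54.2, RAD51D at 17.6, RAD54B at 11.5, FANCC at 22.6, FANCG at 31.7, FANCL at 10.8, FANCD2 at 21.8, MSH6 at 58.3 and TOPBP1 at 114 CPM. In WT 2 there were 7: EXO1 at 60.7, FANCL at 9.81, FANCI at 122, MSH6 at 61.1, ATR at 56.8, CLSPN at 20.0 and CHEK1 at 82.7 CPM. In NCTAD 2 there were 2, EXO1 at 57.7 and CHEK1 at 79.3 CPM, and in FL 2 there was 1, FANCI at 115 CPM.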

How the results depend on the processing

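No member was called in any comparison of constructs with WT or with each other under any alternative run, nor in the interaction, and the smallest adjusted p over those alternatives was 0.41. Without the replicate block, that is with group as the only term, the counts in the group comparisons stayed at 0. Few genes of any kind were called in that fit: 2 in FL against WT, 5 in NCTAD, 2 in cIDR and 3 with the constructs pooled. With the block these were 20, 89, 95 and 97, so the 0 without it says little about the members. The batch comparisons were refitted with batch as the only term, group left out, and gave 30 called members for batch 2 and 5 for batches 1, 3 and 4 among themselves. The batch 2 count of 29 ran from 28 to 30 when each library was left out. It was 24 against batch 1 alone and 28 against batch 3 or batch 4 alone. It fell to 19 with limma on log2(TPM + 1) and to 19 on log2(TPM + 0.1). The count of 3 among batches 1, 3 and 4 ran from 0 to 5 with each library left out, and was 6 with DESeq2, 6 with at least 10 counts in every library, 0 and 0 on the TPM scales, 0 without batch 1, 2 or 3 and 1 without batch 4. Without batch 1, 3 or 4 fewer batches are compared, and without batch 2, which is not among those compared, the cause was not tested. Of the 29 members called in batch 2, 17 kept their direction and call in every alternative run, 12 lost the call in at least 1, and 3 of these 12 changed sign, on the TPM scales only: BARD1 (0.021 and 0.027), FANCC (0.041 and 0.045) and MRE11 (0.076 and 0.080), with pseudocounts of 1 and 0.1. TPM is a count divided by an effective length. The length that the 2 deposited values imply was taken relative to each library's median. It was lower in batch 2 for BARD1 (log2 difference −0.27), FANCC (−0.12) and MRE11 (−0.19). Its median was 0.0065 over 15860 genes with at least 10 counts in every library. Over the 36 members the median was −0.0059, with 18 below 0, and BRCA2 (0.37), ATR (0.23) and BLM (0.23) went the other way. Because this length is worked out from the same 2 values, it restates the changes of sign and does not account for them. What set these lengths was not tested. Signs also changed on the TPM scales for MRE11 in NCTAD against WT (−0.047 and −0.049) and BRCA2 in cIDR against WT (0.041 and 0.038). The other sign changes were in genes near 0 in batch 2. PALB2 was 0.086 against batch 1 alone, 0.020 with at least 10 counts in every library, 0.0097 and 0.011 on the TPM scales, 0.024 without batch 3, 0.0016 without batch 4 and −0.051 to 0.016 with each library left out. RAD50 was 0.082 against batch 1 alone, 0.0024 with at least 10 counts, 0.15 and 0.16 on the TPM scales and 0.0062 without batch 4. FANCE was −0.060 against batch 1 alone, −0.014 without batch 3, −0.0061 without batch 4 and −0.012 to 0.021 with each library left out. PMS2 was −0.054 against batch 4 alone, −0.015 without batch 1 and −0.012 to 0.049 with each library left out, while on the TPM scales it was called higher (0.28 and 0.30). BLM was 0.023 against batch 1 alone. The interaction without the block, fitted with group, batch 2 and their interaction and added after seeing the data, gave 0 called members. With WT replicate 2 or batch 2 left out the interaction could not be fitted. Member counts of 374 or more in every library mean that depth limits these comparisons less than the spread between libraries does.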
